A study of Mus musculus with 18 samples.

Results

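Kidneys taken 7 days after a single dose of folic acid were compared with kidneys taken 3 days after the same dose. The comparison uses the 3 day 7 libraries and the 3 day 3 libraries, 6 of the 18 libraries of the series, and covers every gene that passed a low-count filter. Both groups were male Balb/c mice of 25 to 29 g that received 1 intraperitoneal injection of 250 mg/kg folic acid in 0.3 M sodium bicarbonate. The libraries were made from RNA of whole frozen kidney, and in the labels the groups differ only in the day of sampling. The other 12 libraries are untreated kidney and kidney from the days 1, 2 and 14, with 3 libraries each, and their levels are given for reference. No group received the bicarbonate alone. Whether the 3 libraries of a day are 3 animals is not said in the labels, so p-values measure only the spread between libraries.

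At high dose folic acid injures the epithelium of the renal tubule. In the days that follow such an injury, surviving tubule cells lose part of their mature character, divide and rebuild the epithelium, while macrophages and other leukocytes enter the tissue and fibroblasts lay down extracellular matrix. Repair that stays incomplete leaves inflammation and scar.

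Each of the 6 libraries held 20.5 to 34.2 M reads assigned to genes (M, 1e6), of which 59.0 to 66.3% fell on the mitochondrial genome, which left 7.51 to 11.8 M reads for all other genes. The mitochondrial share was 61.6 ± 3.52% at day 3 and 64.5 ± 1.59% at day 7 (mean ± SD, n = 3; exact two-sided permutation test, p = 0.3). Reads aligned to more than 1 place, which were not assigned to any gene, were 27.1 ± 1.36% at day 3 and 24.0 ± 1.21% at day 7, with no overlap between the groups (exact permutation p = 0.1, the smallest that 3 against 3 libraries allow). Levels of hemoglobin genes, Lyz2, Fth1, Gapdh and other genes that have close copies or pseudogenes are uncertain for that reason. So are genes that overlap another on the opposite strand, because it is not stated whether counting used strand. Day 3 replicate 2 had the lowest rank correlations with the other 5 libraries (0.764 to 0.811, across 5428 genes). The kidney markers were present in all 6 libraries: the lowest values were 0.929 CPM (reads per 1e6 assigned reads after TMM scaling) for the podocyte gene Nphs1 and 1.62 CPM for the intercalated cell gene Atp6v1b1, and the endocytic receptor gene Lrp2 of the proximal tubule lay between 475 and 911 CPM.

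Of 16824 genes tested, 3 passed an edgeR quasi-likelihood test at a Benjamini-Hochberg adjusted p under 0.05 (0.0178%), and all 3 rose. Sema3d (ENSMUSG00000040254), which encodes a secreted semaphorin that guides growing axons and vessels, measured 0.431, 0.909 and 0.367 CPM at day 3 and 10.6, 9.37 and 17.2 at day 7. All 3 day 7 libraries were high and all 3 day 3 libraries were near the floor, with 51 reads at day 3 and 1081 at day 7 in all. It rose 21.8-fold (log2 fold change 4.45, SE 0.67, edgeR adjusted p = 0.0323), and its untreated level was 1.78 ± 1.0 CPM. Tmem119 (ENSMUSG00000054675), a membrane protein gene known as a marker of microglia in brain and for a role in bone formation, measured 0.431, 0.341 and 0.21 CPM at day 3 and 6.22, 8.2 and 5.52 at day 7. The groups were far apart, on low counts (30 reads at day 3 and 578 at day 7). It rose 20.2-fold (log2 fold change 4.33, SE 0.72, edgeR adjusted p = 0.0481) from an untreated level of 1.29 ± 0.298 CPM. Nid1 (ENSMUSG00000005397), the basement membrane protein nidogen that links laminin to collagen IV, measured 24.4, 36.3 and 29.3 CPM at day 3 and 94.8, 70.0 and 142 at day 7. It rose 3.41-fold (log2 fold change 1.77, SE 0.27, edgeR adjusted p = 0.0323), while day 3 was close to the untreated level of 27.4 ± 4.97 CPM. The calls depend on single libraries: without day 7 replicate 2 there were 2 calls, and without any 1 of the other 5 there were 0. No gene passed in the other direction (0.0%) by edgeR or limma-voom.

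Around these 3 genes the test left many differences below its threshold. At an unadjusted p under 0.05, edgeR counted 837 genes higher at day 7 (4.98%) and 861 lower (5.12%). DESeq2 called 132 higher (0.763% of 17301 genes with an adjusted p) and 85 lower (0.491%), limma-voom called 11 higher (0.0654%) and 0 lower (0.0%). The 3 genes of edgeR were among those of DESeq2. A count that needs no model was therefore used for gene groups: the number of members whose 3 day 7 libraries all lay above, or all below, the 3 day 3 libraries. Over all genes tested that was 1218 higher (7.24%) and 1234 lower (7.33%). Every list count below is to be read beside these shares, and counts by p-value beside the shares of the same tool above. Fitted values were above 0 in 48.6% of all genes and below 0 in 51.4%, with a median log2 fold change of -0.02. List counts and medians are descriptions with no test. In whole kidney, fewer cells of a type and less RNA per cell cannot be told apart, so each list describes the tissue and not a cell.

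**Figure D1:**
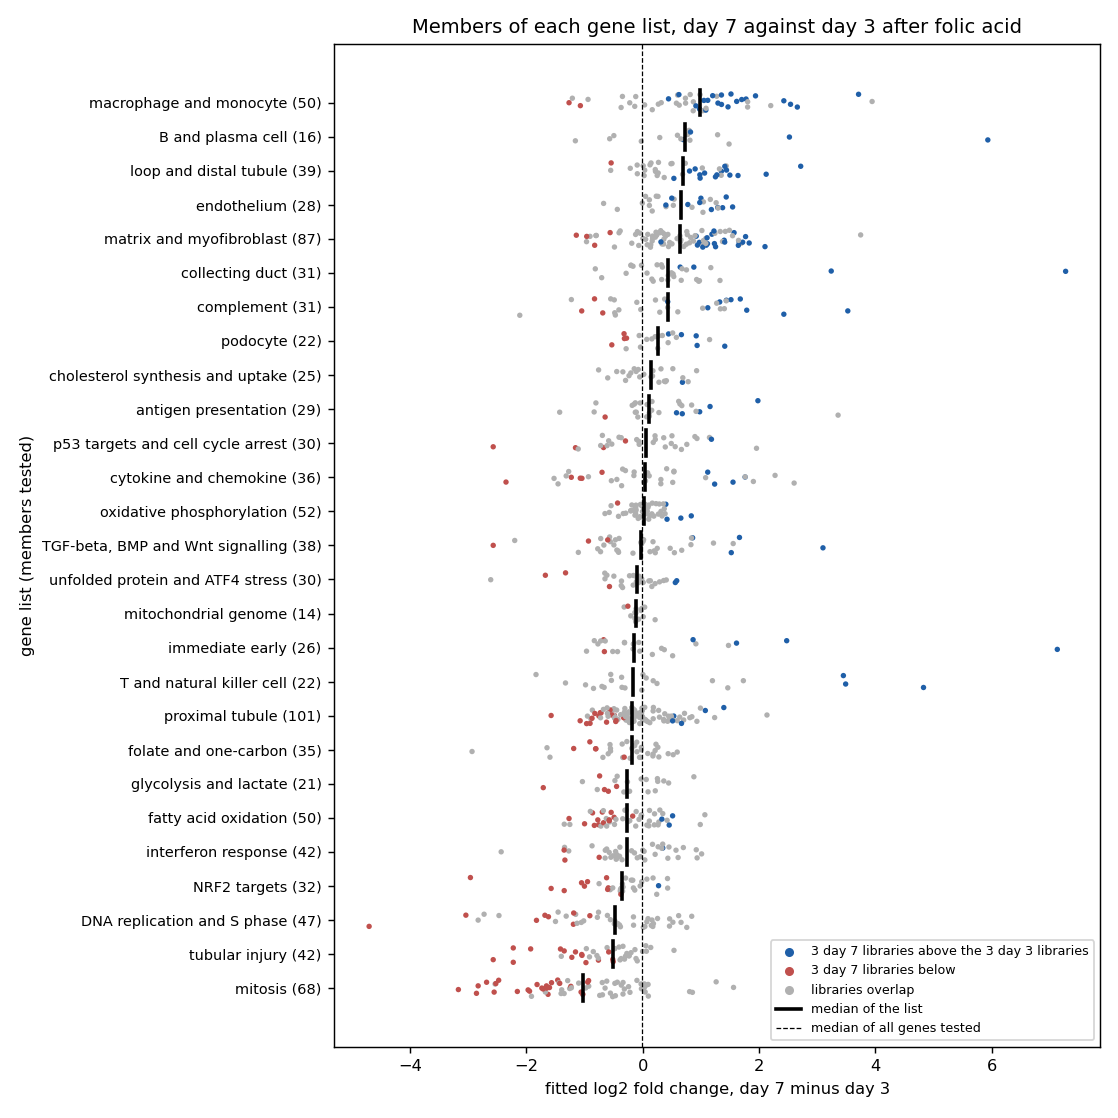
Each point is 1 tested member of a gene list at its fitted log2 fold change of day 7 minus day 3 (horizontal axis), colored by whether the 3 and 3 libraries overlap; black bars are list medians and the dashed line is the median of all genes tested. Mitosis genes sit lowest (median -1.03) and macrophage genes highest (median 0.98).

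**Figure D2:**
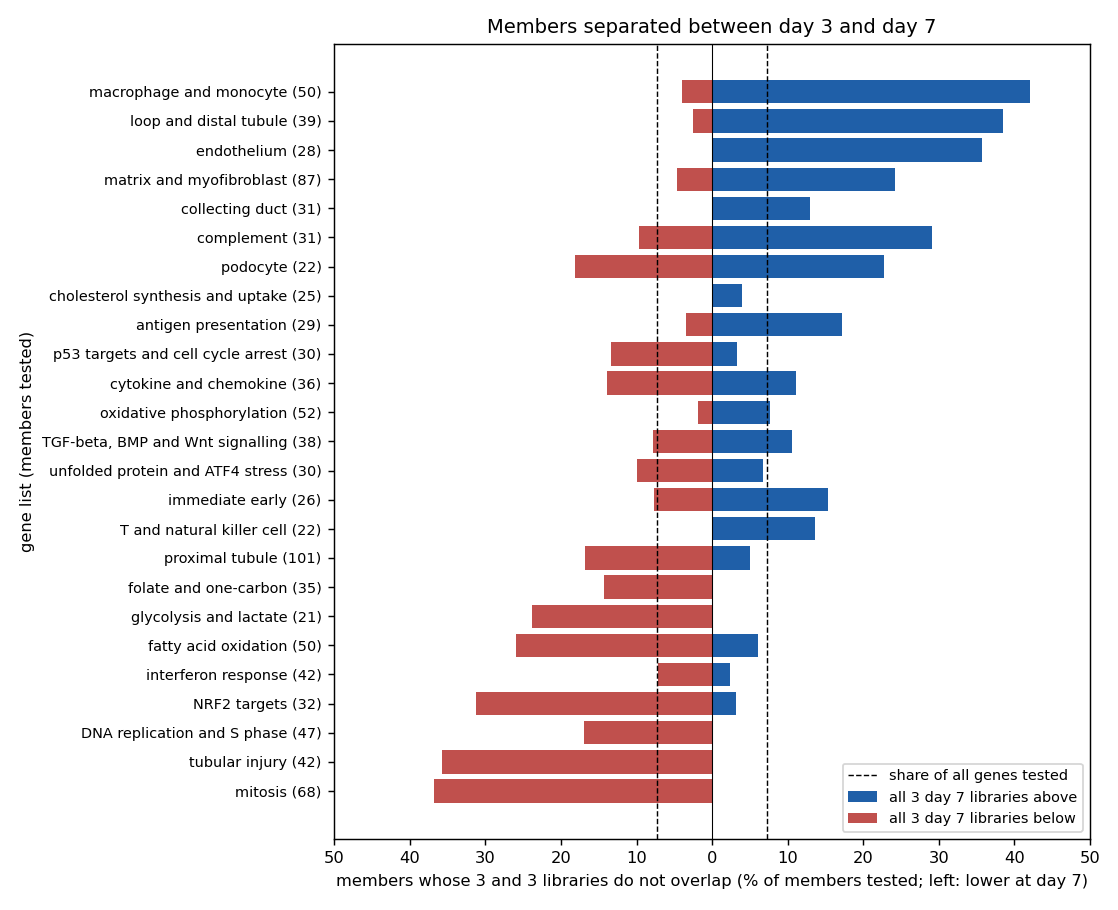
Bars give the percent of tested members whose 3 day 7 libraries all lay above (right, blue) or below (left, red) the 3 day 3 libraries, for lists with at least 20 members tested; dashed lines mark 7.24% and 7.33%, the shares over all genes tested. The mitosis bar reaches 36.8% on the lower side and the macrophage bar 42.0% on the higher side.

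Genes of cell division were lower at day 7. All 68 genes of the mitosis list were tested, and 58 had a fitted value below 0 with a median log2 fold change of -1.03. In 25 of the 68 (36.8%, against 7.33% of all genes tested) the 3 day 7 libraries lay below the 3 day 3 libraries, and in 0 did they lie above (7.24% over all genes). The summed level of the list was 399, 403 and 396 CPM at day 3 and 219, 215 and 175 CPM at day 7, so the groups were apart and the day 3 libraries nearly equal. None passed edgeR's adjusted threshold; 18 had an unadjusted p under 0.05, all lower, DESeq2 called 7 (Ccnb2, Cenpf, Kif23, Knl1, Mki67, Prc1 and Ube2c), and limma-voom called 0.

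Promoters of such genes often carry 2 short elements, the letters TTTGAA of the cell cycle homology region, which serves the DREAM repressor and the B-MYB and FOXM1 activators, and the CCAAT box bound by NF-Y. Shown are the windows of Mki67 and of 4 other mitosis genes. These 4 had the largest differences among separated members averaging 5 CPM or more in the higher group. The windows hold these elements in different numbers. Each runs from 150 bases before to 30 bases after the transcription start, 5′ to 3′ on the gene's strand, from RefSeq on GRCm38.p6, which is a later build than the one the reads were aligned to. Capitals mark TTTGAA or its reverse complement TTCAAA, and CCAAT or its reverse complement ATTGG.
Mki67, chr7:135716350-135716529, minus strand: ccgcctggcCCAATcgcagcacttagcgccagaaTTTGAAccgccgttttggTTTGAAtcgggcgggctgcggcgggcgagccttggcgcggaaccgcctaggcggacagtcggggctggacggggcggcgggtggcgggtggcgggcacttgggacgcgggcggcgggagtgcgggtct
Cenpf, chr1:189688057-189688236, minus strand: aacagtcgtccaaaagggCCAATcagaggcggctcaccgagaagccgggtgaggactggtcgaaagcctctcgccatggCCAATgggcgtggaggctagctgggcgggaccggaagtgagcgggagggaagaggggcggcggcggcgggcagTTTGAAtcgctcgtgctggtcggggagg
Kif23, chr9:61946770-61946949, minus strand: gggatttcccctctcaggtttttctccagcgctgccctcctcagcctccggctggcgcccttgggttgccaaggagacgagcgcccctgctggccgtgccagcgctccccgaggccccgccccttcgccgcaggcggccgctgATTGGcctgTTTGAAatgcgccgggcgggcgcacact
Ube2c, chr2:164769779-164769958, plus strand: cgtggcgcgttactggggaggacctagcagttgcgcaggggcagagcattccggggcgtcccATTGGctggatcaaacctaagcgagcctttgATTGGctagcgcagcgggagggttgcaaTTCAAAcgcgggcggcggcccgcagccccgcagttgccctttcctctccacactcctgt
Cenpe, chr3:135212413-135212592, plus strand: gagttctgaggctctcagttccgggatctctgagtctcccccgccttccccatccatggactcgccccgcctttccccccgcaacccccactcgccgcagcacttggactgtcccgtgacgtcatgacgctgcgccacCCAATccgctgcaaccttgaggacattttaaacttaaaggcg
Mki67 has 2 TTTGAA matches and 1 CCAAT, Cenpf 1 and 2, Kif23 1 and 1, Ube2c 1 and 2, and Cenpe 1 CCAAT with no TTTGAA match in these letters. The window of Top2a, read in the same way and not shown, has 1 TTTGAA match and 4 CCAAT.

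Searched on both strands from 250 bases before to 50 bases after the start, 66.1% of the 62 windows of 57 mitosis genes held TTTGAA, 75.8% held CCAAT and 54.8% held both. Of all 32851 mouse windows 17.9% held TTTGAA, 37.4% CCAAT and 6.95% both. Of the 14805 windows of all genes tested 12.9% held TTTGAA, 37.3% CCAAT and 5.13% both. For the 45 windows of the DNA replication list the shares were 11.1%, 62.2% and 11.1%. A match describes these letters and is not a binding site. Within the mitosis list the 32 genes with both elements had a median log2 fold change of -1.23, with 15 of them below in all 3 libraries (46.9%). The 25 without both had -1.10, with 8 below (32.0%). This difference was not tested. Outside the mitosis and replication lists, the 676 genes with both elements and the 10828 without both each had a median of -0.02. Of these, 8.43% and 7.37% lay below in all 3 libraries.

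Mki67 encodes the Ki-67 protein found in cycling cells. It measured 51.2, 33.7 and 48.7 CPM at day 3 and 13.9, 13.4 and 12.8 at day 7, so the day 7 libraries were close to each other and all below day 3 (3.33-fold lower, log2 fold change -1.74, SE 0.40, edgeR adjusted p = 0.167, DESeq2 adjusted p = 0.00858). The untreated level was 4.03 ± 2.3 CPM, below both. Cenpf, a kinetochore protein gene, measured 16.9, 60.3 and 17.6 CPM at day 3 and 3.45, 6.38 and 3.23 at day 7. Day 3 replicate 2 stood far above its group, and the other day 3 libraries were still above all 3 at day 7 (7.25-fold lower, log2 fold change -2.86, SE 0.54, edgeR adjusted p = 0.112). Kif23, a kinesin of the midbody that closes cell division, measured 15.7, 47.1 and 6.85 CPM at day 3 and 4.7, 2.49 and 3.61 at day 7, again with day 3 replicate 2 highest (log2 fold change -2.69, SE 0.56). Ube2c, which delivers ubiquitin for the anaphase-promoting complex, measured 3.58, 3.87 and 19 CPM at day 3 and 2.73, 0.784 and 0.971 at day 7, with day 3 replicate 3 highest (log2 fold change -2.56, SE 0.67). Cenpe, the kinesin of the kinetochore, measured 10.6, 3.64 and 6.04 CPM at day 3 and 1.41, 1.75 and 2.01 at day 7 (log2 fold change -1.97, SE 1.09). Top2a, the topoisomerase that untangles chromosomes, measured 20.4, 23.5 and 18.1 CPM at day 3 and 10.7, 9.48 and 12.4 at day 7 (log2 fold change -0.93, SE 0.53). In Cenpf, Kif23 and Ube2c a single day 3 library stood far above the others, and in Mki67 and Top2a none did. The 10 members with a fitted value above 0 all had overlapping libraries. Hjurp, the chaperone of centromeric histone, was one of them at 18.2, 17.1 and 19.2 CPM at day 3 and 17.1, 24.7 and 14.2 at day 7, and Aurkb, the mitotic kinase of the midzone, another at 0.829, 0.53 and 3.94 CPM at day 3 and 2.7, 1.85 and 0.867 at day 7.

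The DNA replication and S phase list differed less uniformly. Of its 48 genes 47 were tested, 31 had a fitted value below 0 (median -0.48), and the libraries were apart below in 8 (17.02%, against 7.33%) and above in 0. With 1 library left out the median lay between -0.80 (without day 7 replicate 2) and -0.42 (without day 3 replicate 3). With library totals alone it was -0.35. None passed edgeR, 11 had an unadjusted p under 0.05, all lower, DESeq2 called 4 (Ccna2, E2f2, Rrm2 and Uhrf1) and limma-voom 0. Rrm2, the inducible subunit of ribonucleotide reductase, measured 10.3, 5.99 and 23.5 CPM at day 3 and 1.91, 1.57 and 1.35 at day 7. All 3 day 7 libraries were below, although day 3 spread over a wide range (8.23-fold lower, log2 fold change -3.04, SE 0.63). Ccna2, the cyclin of S phase and G2, measured 8.06, 5.87 and 17.6 CPM at day 3 and 3.22, 3.24 and 2.43 at day 7 (log2 fold change -1.83, SE 0.52). E2f2, a transcription factor of the G1 to S step, measured 1.56, 1.71 and 14 CPM at day 3 and 0.296, 0.356 and 0 at day 7, and 1 library, day 3 replicate 3, held most of the reads. The helicase subunits differed: Mcm6 measured 11.3, 2.35 and 3.99 CPM at day 3 and 2.27, 1.78 and 1.67 at day 7, without overlap, and Mcm5 measured 2.22, 4.09 and 7.35 CPM at day 3 and 1.58, 18.5 and 0.937 at day 7, with overlap and its highest value in day 7 replicate 2. Tyms, the thymidylate synthase gene that also stands in the folate and one-carbon list, measured 11.2, 20.9 and 10.9 CPM at day 3 and 9.27, 6.84 and 6.76 at day 7 (log2 fold change -0.91, SE 0.37), and day 7 was near the untreated level of 6.94 ± 1.92 CPM. The folate and one-carbon list held 25 of 35 fitted values below 0 (median -0.19), with 5 genes apart below (14.3%, against 7.33%) and 0 above (against 7.24%). Without day 7 replicate 3 it was 29 below 0 (median -0.46), and without day 7 replicate 2 it was 20 below and 15 above (median -0.15). The folate receptor gene Folr1, which takes up folate at the proximal tubule surface, was one of them at 34.6, 40.8 and 43.5 CPM at day 3 and 18.8, 20.8 and 28.2 at day 7 (log2 fold change -0.81, SE 0.27).

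Markers of injured tubule were lower at day 7 but well above untreated kidney. Of 43 genes in the list 42 were tested, 38 had a fitted value below 0 (median -0.51), 15 lay below in all 3 libraries (35.7%, against 7.33%) and 0 above. None passed edgeR, 13 had an unadjusted p under 0.05, all lower, DESeq2 called 3 (Fga, Gdf15 and Havcr1) and limma-voom 0. Havcr1, kidney injury molecule 1, the phosphatidylserine receptor of dedifferentiated tubule cells, measured 286, 679 and 359.5 CPM at day 3 and 148, 144 and 205 at day 7. Every day 7 library was below every day 3 library, and day 3 replicate 2 was the highest (2.66-fold lower, log2 fold change -1.41, SE 0.32, edgeR adjusted p = 0.167). Against an untreated level of 16.4 ± 6.52 CPM, day 7 stood at 166 ± 34.1 CPM. Spp1, the secreted phosphoprotein osteopontin, measured 6915, 9272 and 6340.0 CPM at day 3 and 5989, 3725 and 3575 at day 7 (log2 fold change -0.76, SE 0.41), against 117 ± 16.6 CPM untreated. Clu, the chaperone clusterin, measured 511, 487 and 317 CPM at day 3 and 259, 168 and 209 at day 7 (log2 fold change -1.05, SE 0.29). Krt19, a keratin of simple ducts, measured 11.9, 6.4 and 3.49 CPM at day 3 and 2.14, 1.64 and 0.867 at day 7. Fga, the fibrinogen alpha chain, measured 14.8, 52.9 and 15 CPM at day 3 and 7.7, 3.63 and 6.31 at day 7, both without overlap. The injury markers were not uniform: Lcn2, the lipocalin that binds bacterial iron carriers, measured 147, 64 and 54.1 CPM at day 3 and 102, 55.5 and 52.1 at day 7, and the adhesion molecule gene Vcam1 176, 312 and 106 CPM at day 3 and 83.3, 144 and 75.6 at day 7. Both overlapped, and the fitted log2 fold change of Lcn2 was -0.34 (SE 0.72).

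Targets of NRF2, the transcription factor that answers oxidative stress, were also lower at day 7. Their median log2 difference from the untreated mean was already negative at day 3 (-0.15) and lower at day 7 (-0.40). Injury genes stood above untreated on both days (2.62 and 1.71). Of 34 genes 32 were tested, and 26 had a fitted value below 0 (median -0.36). In all 3 libraries 10 lay below (31.2%, against 7.33% of all genes) and 1 above (3.12%, against 7.24%). None passed edgeR, 7 had an unadjusted p under 0.05, all lower, and DESeq2 called 1, Keap1. Fth1, the ferritin heavy chain that stores iron, measured 843, 906 and 781 CPM at day 3 and 391, 398 and 474 at day 7, so the groups were tight and apart (2.0-fold lower, SE 0.28 on the log2 scale). Its day 7 level was also below the untreated level of 1221 ± 351 CPM. Hmox1, heme oxygenase 1, measured 19.7, 16.6 and 10.6 CPM at day 3 and 9.96, 5.84 and 2.57 at day 7 (log2 fold change -1.35, SE 0.47). It also stands in the injury list. Srxn1, which repairs oxidized peroxiredoxin, measured 14.7, 26.9 and 17.3 CPM at day 3 and 9.14, 7.55 and 11.7 at day 7 (log2 fold change -1.05, SE 0.64). Keap1, the adaptor that marks NRF2 for degradation, measured 27.1, 2.05 and 4.25 CPM at day 3 and 1.64, 0.998 and 1.63 at day 7, where day 3 replicate 1 alone held most of the day 3 level. The exception, Slc7a11, the cystine transporter gene, measured 5.77, 5.46 and 5.75 CPM at day 3 and 6.54, 7.23 and 6.73 at day 7, a small difference (log2 fold change 0.27, SE 0.29) without overlap.

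Genes of the loop of Henle and the distal tubule were higher at day 7. All 39 were tested, 34 had a fitted value above 0 (median 0.69), 15 lay above in all 3 libraries (38.5%, against 7.24%) and 1 below (2.56%, against 7.33%). None passed edgeR, 17 had an unadjusted p under 0.05, all higher, DESeq2 called 6 (Calb1, Casr, S100g, Slc12a3, Slc8a1 and Tmem52b) and limma-voom 3 (Calb1, S100g and Slc12a3). Of 29 genes of salt and mineral transport 10 lay above (34.5%) and 1 below (3.45%), with a median of 0.37. Of the 10 other genes of the list 5 lay above (50%) and 0 below, with a median of 1.13. S100g, the small calcium buffer calbindin-D9k, measured 7.46, 8.53 and 19.9 CPM at day 3 and 45.5, 94.7 and 96.2 at day 7. Its day 7 libraries were all above day 3 (6.58-fold higher, log2 fold change 2.72, SE 0.51, edgeR adjusted p = 0.112) and below the untreated level of 161 ± 41.3 CPM. Calb1, the calcium buffer calbindin-D28k, measured 23.3, 16.7 and 37.6 CPM at day 3 and 74.8, 90.8 and 172 at day 7, with day 7 replicate 3 highest (4.36-fold higher, log2 fold change 2.12, SE 0.39, edgeR adjusted p = 0.112). Slc8a1, the sodium-calcium exchanger that moves calcium out to the blood, measured 10.6, 5.34 and 10.1 CPM at day 3 and 18, 25.9 and 30.0 at day 7 (log2 fold change 1.5, SE 0.35). Casr, the calcium-sensing receptor of the thick ascending limb, measured 6.37, 5.87 and 7.16 CPM at day 3 and 23.3, 14.8 and 13.6 at day 7 (log2 fold change 1.41, SE 0.37). All 4 were apart, and their day 7 means were below the untreated means. The calcium entry channel genes Trpv5 and Trpv6 did not separate: Trpv5 measured 26.7, 18.4 and 26.2 CPM at day 3 and 33.3, 9.76 and 18.5 at day 7 and Trpv6 0.597, 1.25 and 4.22 CPM at day 3 and 1.22, 1.21 and 3.82 at day 7.

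Slc12a3, the thiazide-sensitive cotransporter of the distal convoluted tubule, measured 74.7, 70.8 and 83.3 CPM at day 3 and 210.1, 161 and 214 at day 7. The 2 groups were apart by more than the spread within either (2.56-fold higher, log2 fold change 1.35, SE 0.26, DESeq2 adjusted p = 7.50e-04), and day 7 was above the untreated level of 139 ± 12.9 CPM. Slc12a1, the furosemide-sensitive cotransporter of the thick ascending limb, measured 110.5, 84.6 and 172 CPM at day 3 and 224, 346 and 304 at day 7 (log2 fold change 1.25, SE 0.42). Umod, the uromodulin gene of the same segment, measured 316, 268 and 461 CPM at day 3 and 739, 650.1 and 676 at day 7 (log2 fold change 0.98, SE 0.29). Both remained below their untreated means of 567 ± 191 CPM and 869 ± 143 CPM. Egf, the growth factor precursor made by the distal tubule, measured 16.7, 15.5 and 40.8 CPM at day 3 and 38.9, 61.1 and 86.3 at day 7, with a slight overlap through day 3 replicate 3 (log2 fold change 1.35, SE 0.41), and stayed far below 306 ± 23.3 CPM untreated. Kl, the FGF23 coreceptor klotho, overlapped at 125, 73.7 and 122 CPM at day 3 and 72.5, 158 and 157 at day 7. The member that lay below was Kcnj16, a basolateral potassium channel subunit, at 519, 509 and 497 CPM at day 3 and 361, 356 and 329.9 at day 7 (log2 fold change -0.54, SE 0.26).

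The collecting duct list also had mostly positive fitted values, with fewer separated genes. Of 32 genes 31 were tested and 24 had a fitted value above 0 (median 0.44). In all 3 libraries 4 lay above (12.9%, against 7.24%) and 0 below (against 7.33%). Of 16 principal cell genes 3 lay above (18.75%, median 0.38), and of 15 intercalated cell genes 1 (6.67%, median 0.52). The summed level of the intercalated cell genes was 258 ± 21.9 CPM at day 3 and 253 ± 45.3 CPM at day 7. The median was 0.24 without day 3 replicate 2, 0.27 without day 7 replicate 3 (12 of 31 below 0) and 0.66 without day 3 replicate 3. Hsd11b2, which shields the mineralocorticoid receptor from cortisol-type hormones, measured 25, 18.2 and 27.6 CPM at day 3 and 36.4, 35.2 and 39 at day 7 (log2 fold change 0.64, SE 0.26). Scnn1b, a subunit of the epithelial sodium channel, measured 5.71, 6.29 and 8.24 CPM at day 3 and 9.18, 14.7 and 13.4 at day 7 (log2 fold change 0.88, SE 0.39). Aqp2, the vasopressin-regulated water channel, overlapped at 10.8, 5.42 and 11.9 CPM at day 3 and 11.5, 12.5 and 29.5 at day 7. Nccrp1 had no read at day 3 and 56 at day 7, which makes it at least 20.7-fold higher when the day 3 group is set to 3 counts (counting error only, on amplified reads). DESeq2 called it.

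**Figure D3:**
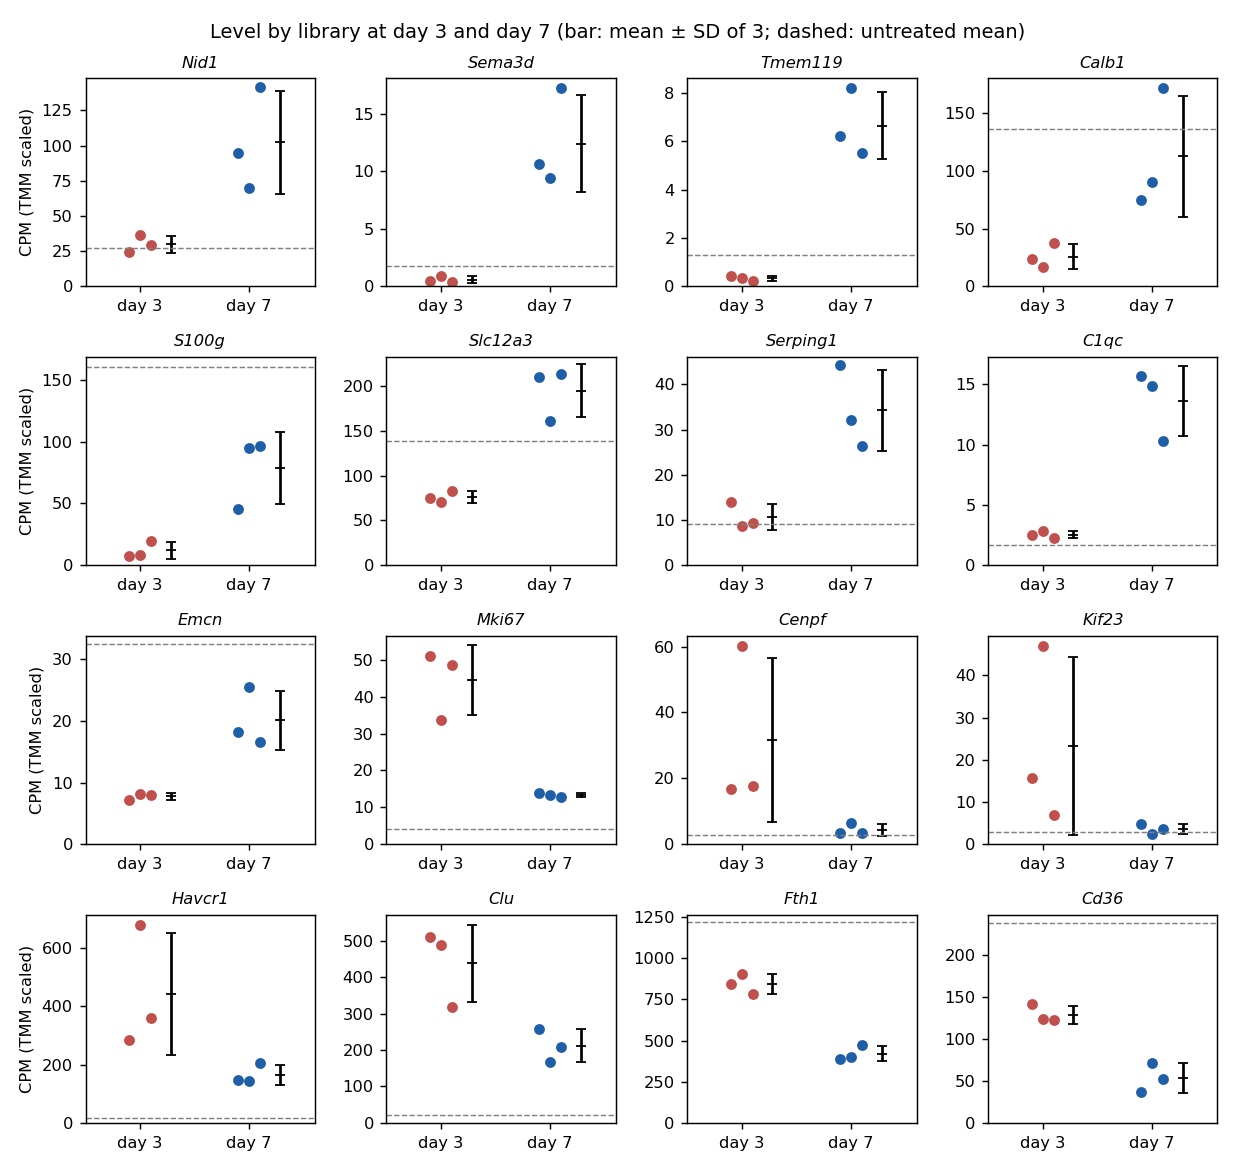
Each panel gives the level of 1 gene in CPM (vertical axis, from 0) in the 3 day 3 libraries (red) and the 3 day 7 libraries (blue), with mean ± SD of 3 beside them and the untreated mean as a dashed line. All 16 genes shown are among those without overlap (14.6% of all genes tested), so the separation follows from the choice of genes. Mki67, for instance, has 12.8 to 13.9 CPM at day 7 against 33.7 to 51.2 CPM at day 3.

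The proximal tubule, which lies upstream of these segments and reabsorbs most of the filtrate, was not higher at day 7 as a group. All 101 genes were tested, 67 had a fitted value below 0 (median -0.18), 17 lay below in all 3 libraries (16.8%, against 7.33%) and 5 above (4.95%, against 7.24%). None passed edgeR, 3 higher and 13 lower had an unadjusted p under 0.05, and neither DESeq2 nor limma-voom called any. The median was -0.08 without day 3 replicate 3 or without day 7 replicate 1, and -0.27 without day 3 replicate 2. Solute transporters had 10 of 37 below (27.0%) and 2 above (median -0.31), endocytic receptor and brush border genes 4 of 14 below (28.6%) and 1 above (median -0.26), and enzymes 3 of 40 below (7.5%) and 1 above (median -0.04). No difference between these subgroups was tested. Abcc2, the apical export pump for conjugates, measured 58.5, 27.5 and 56.9 CPM at day 3 and 19.1, 23.3 and 25.4 at day 7 (log2 fold change -1.08, SE 0.29). Slc22a2, the basolateral organic cation transporter, measured 66.9, 52.1 and 85 CPM at day 3 and 21.4, 44.8 and 38.3 at day 7 (log2 fold change -0.97, SE 0.30). Neither gene overlapped between days. Slc13a1, the sodium-sulfate cotransporter, measured 597, 509.9 and 538 CPM at day 3 and 350.5, 267 and 261 at day 7 (1.87-fold lower, log2 fold change -0.91, SE 0.23), where day 7 was nearer the untreated level of 147 ± 17 CPM. Lrp2, the endocytic receptor megalin, measured 865, 708 and 911 CPM at day 3 and 475, 564 and 678 at day 7, without overlap and with day 7 further from the untreated level of 1916 ± 231 CPM (log2 fold change -0.53, SE 0.23).

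Other proximal genes overlapped or were higher. Slc34a1, the phosphate cotransporter, overlapped at 217, 267 and 233 CPM at day 3 and 142, 247 and 243 at day 7. Slc7a13, an amino acid transporter of the late proximal tubule, measured 37.2, 24.1 and 49.5 CPM at day 3 and 14.9, 54 and 32.2 at day 7. Both were far below their untreated means of 707 ± 91.2 CPM and 335 ± 46 CPM. Dpep1, a brush border dipeptidase, measured 1.96, 4.36 and 7.29 CPM at day 3 and 11.8, 14.4 and 9.68 at day 7, and all 3 day 7 libraries were above (2.63-fold higher, log2 fold change 1.40, SE 0.49). Ass1, which makes argininosuccinate for arginine synthesis, measured 129, 88.7 and 137 CPM at day 3 and 162, 190.4 and 211 at day 7 (log2 fold change 0.67, SE 0.29). G6pc, the enzyme that releases glucose, measured 37.5, 38.7 and 40.0 CPM at day 3 and 77.3, 33.2 and 78.6 at day 7, with day 7 replicate 2 below the narrow day 3 range.

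Fuel genes of the tubule were lower in parts. Of 52 genes of fatty acid oxidation, the main energy source of the proximal tubule, 50 were tested, and 34 had a fitted value below 0 (median -0.27). In all 3 libraries 13 lay below (26.0%, against 7.33% of all genes) and 3 above (6.0%, against 7.24%). The median was -0.16 without day 3 replicate 1. Cd36, the fatty acid carrier of plasma membranes, measured 141, 123 and 122 CPM at day 3 and 36.8, 71.7 and 52 at day 7, with a clear gap between the groups (2.41-fold lower, log2 fold change -1.27, SE 0.38). Acadl, the long-chain acyl-CoA dehydrogenase, measured 54.1, 43 and 74.1 CPM at day 3 and 29.2, 29.2 and 35.7 at day 7 (log2 fold change -0.86, SE 0.24), and the peroxisomal genes Abcd3 and Crot had log2 fold changes of -0.58 and -0.57. None passed edgeR, 13 had an unadjusted p under 0.05, all lower, and neither DESeq2 nor limma-voom called any. Cpt1a, the carnitine step at the mitochondrial outer membrane, measured 147, 79.9 and 84 CPM at day 3 and 77.1, 66.3 and 77.7 at day 7 (log2 fold change -0.49, SE 0.25). The dehydrogenase gene Acadm overlapped at 51.4, 42.1 and 55.8 CPM at day 3 and 30.0, 50.3 and 40.5 at day 7, and Ppargc1a, the coactivator of mitochondrial genes, was among the 3 above at 35.1, 22.6 and 44.1 CPM at day 3 and 44.4, 52 and 49.2 at day 7 (log2 fold change 0.51, SE 0.31). Genes of glycolysis and lactate had 13 of 21 tested below 0 (median -0.26), with 5 apart below (23.8%, against 7.33%) and 0 above (against 7.24%). That median was -0.13 without day 3 replicate 3. Gapdh measured 248, 207 and 227 CPM at day 3 and 145, 149.7 and 138 at day 7 (log2 fold change -0.66, SE 0.23), Eno1, the enolase, 47.2, 51.4 and 46.2 CPM at day 3 and 30.3, 31.5 and 24.8 at day 7 (log2 fold change -0.74, SE 0.29). Slc16a1, the lactate carrier, measured 8.59, 21.5 and 6.98 CPM at day 3 and 3.35, 4.7 and 3.26 at day 7, with day 3 replicate 2 highest. Nuclear genes of oxidative phosphorylation had 27 of 52 fitted values above 0, 25 below and a median of 0.02, with 4 apart above (7.69%) and 1 below (1.92%). Their balance turned on single libraries: without day 7 replicate 3 it was 14 above 0 and 38 below (median -0.15), and without day 7 replicate 1 it was 35 above and 17 below (median 0.14).

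Macrophage genes were higher at day 7. Of 54 genes 50 were tested, 41 had a fitted value above 0 (median 0.98), 21 lay above in all 3 libraries (42.0%, against 7.24%) and 2 below (4.0%, against 7.33%). Among the 29 tested genes of cell identity it was 15 above (51.7%) and 0 below. Of 21 tested genes of alternative activation and lipid handling 6 lay above (28.6%) and 2 below (9.52%), with a median of 0.62. The summed level of that subgroup was 319 ± 30.5 CPM at day 3 and 338 ± 47.0 CPM at day 7. None passed edgeR, 18 higher and 1 lower had an unadjusted p under 0.05, DESeq2 called 4 higher (Adgre1, C1qc, Folr2 and Ms4a7) and limma-voom 0. Adgre1, the surface receptor F4/80 of tissue macrophages, measured 5.51, 4.02 and 2.49 CPM at day 3 and 14, 15.5 and 7.32 at day 7 (3.07-fold higher, log2 fold change 1.62, SE 0.53), from 0.894 ± 0.608 CPM in untreated kidney. C1qc, a chain of complement C1q made largely by macrophages, measured 2.52, 2.84 and 2.23 CPM at day 3 and 15.7, 14.8 and 10.3 at day 7, and the day 7 libraries were all several times the highest day 3 library (5.38-fold higher, log2 fold change 2.43, SE 0.64, edgeR adjusted p = 0.203). C1qb measured 4.01, 9.89 and 4.22 CPM at day 3 and 18.3, 18.5 and 15.1 at day 7 (log2 fold change 1.52, SE 0.65). Ms4a7, a membrane protein gene of macrophages, measured 1.13, 0.871 and 1.63 CPM at day 3 and 8.26, 11.3 and 1.7 at day 7, with day 7 replicate 3 only just above day 3.

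The marker Mrc1, the mannose receptor CD206 that the series title names, measured 10.7, 8.26 and 8.53 CPM at day 3 and 16.6, 14.1 and 21.2 at day 7. Its groups did not overlap (1.89-fold higher), but it did not pass (log2 fold change 0.91, SE 0.52, edgeR adjusted p = 0.588), and both days were above the untreated level of 1.84 ± 0.952 CPM. Apoe, the lipid carrier made by macrophages among other cells, measured 23.4, 29.4 and 19 CPM at day 3 and 73.9, 70.1 and 54.3 at day 7 (log2 fold change 1.47, SE 0.52). Stab1, a scavenger receptor of macrophages and some endothelium, measured 6.83, 6.06 and 3.65 CPM at day 3 and 11.2, 20.7 and 10.4 at day 7 (log2 fold change 1.35, SE 0.58). The 2 members that lay below, Cd36 and Fabp5, are also expressed outside macrophages, and Cd14, the endotoxin coreceptor, overlapped at 54.3, 50.9 and 23.9 CPM at day 3 and 16.4, 39.2 and 11.7 at day 7. Ptprc, the pan-leukocyte antigen CD45, did not separate at 5.74, 28.1 and 7.82 CPM at day 3 and 11.9, 15.6 and 10.3 at day 7, where day 3 replicate 2 was the highest.

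Complement genes lay on both sides. Of 32 genes 31 were tested, with 9 above (29.0%, against 7.24%) and 3 below (9.68%, against 7.33%) and a median of 0.43. None passed edgeR, 8 higher and 2 lower had an unadjusted p under 0.05, DESeq2 called 2 and limma-voom 1. The 9 include all 3 chains of C1q and the inhibitor gene Serping1. Serping1, the C1 inhibitor, measured 14, 8.75 and 9.37 CPM at day 3 and 44.2, 32.1 and 26.5 at day 7 (log2 fold change 1.68, SE 0.50). C3, the central component that injured tubule cells also make, was lower in all 3 libraries at 1134, 1178 and 767 CPM at day 3 and 665, 628 and 619 at day 7 (log2 fold change -0.69, SE 0.48), against 3.65 ± 0.528 CPM untreated. C4b, the classical pathway component, measured 44, 53.6 and 58.7 CPM at day 3 and 24.6, 28.7 and 34.6 at day 7 (log2 fold change -0.83, SE 0.27), and Clu, described with the injury genes, was the other lower gene.

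Among genes of antigen presentation, counts for class II and class I genes were unlike. Of 16 tested class II and co-stimulation genes 5 lay above (31.2%) and 0 below (median 0.60), and of 13 class I genes 0 lay above and 1 below (median -0.13). H2-Aa, a class II alpha chain, measured 48.4, 89.6 and 45.2 CPM at day 3 and 133, 172 and 104 at day 7 (log2 fold change 1.16, SE 0.33), and Cd74, the class II invariant chain, overlapped at 219, 314 and 208 CPM at day 3 and 258, 572 and 351 at day 7. This difference between the subgroups was not tested. T and natural killer cell genes showed no common direction, with 22 of 40 tested, 10 above 0 and 12 below (median -0.16, and between -0.44 without day 7 replicate 2 and 0.17 without day 3 replicate 3), and Cd3e measured 1.06, 0.455 and 0 CPM at day 3 and 0.0329, 0.142 and 0.659 at day 7. B and plasma cell genes had 12 of 16 tested above 0 (median 0.73) and 4 apart above (25.0%), all at low levels: Ebf1 measured 4.68, 3.75 and 3.78 CPM at day 3 and 4.8, 8.55 and 6.42 at day 7 and Igkc 0.896, 0.909 and 0.184 CPM at day 3 and 1.68, 6.66 and 3.05 at day 7. The B cell identity genes Ms4a1 and Cd79a were at 0 in all 3 day 7 libraries. Interferon response genes had 25 of 42 below 0 (median -0.27) with 3 apart below (7.14%) and 1 above (2.38%). That median was -0.03 without day 3 replicate 2, with 21 genes on each side, -0.06 without day 3 replicate 3 and -0.42 without day 7 replicate 2. Cytokine and chemokine genes had 36 of 53 tested, 4 above (11.1%), 5 below (13.9%) and a median of 0.03, which was -0.14 without day 7 replicate 1 and 0.19 without day 3 replicate 2. Cxcl10, an interferon-induced attractant of T cells, measured 12.1, 23.4 and 9.37 CPM at day 3 and 2.37, 4.99 and 1.42 at day 7 (log2 fold change -2.35, SE 0.87). Cxcl12, the stromal attractant, measured 11.3, 7.96 and 23.6 CPM at day 3 and 26.1, 30.6 and 44.6 at day 7 (log2 fold change 1.24, SE 0.50), both without overlap. Ccl2, which draws monocytes, overlapped at 11.4, 21.2 and 6.22 CPM at day 3 and 15.8, 15.1 and 25.5 at day 7.

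Matrix and myofibroblast genes were higher at day 7 in most members, with overlap in Col1a1, Col3a1, Fn1 and Acta2. Of 91 genes 87 were tested, 71 had a fitted value above 0 (median 0.65), 21 lay above in all 3 libraries (24.1%, against 7.24%) and 4 below (4.60%, against 7.33%). Nid1 was the member that passed, 18 higher and 3 lower had an unadjusted p under 0.05, and DESeq2 called Bgn, Mgp and Nid1 higher and Timp3 lower. Glycoproteins and proteoglycans stood highest among the subgroups, with 10 of 26 above (38.5%), 0 below and a median of 1.10. Fibrillar collagens had 2 of 7 above and other collagens 3 of 11, with 0 below in both. Fibroblast and contractile genes had 2 of 18 above (11.1%) and 0 below (median 0.50). For collagen maturation it was 1 of 13 above (7.69%) and 2 below (15.4%). Proteases and inhibitors had 3 of 12 above (25.0%) and 2 below (16.7%). Lama2, a laminin chain of basement membranes, measured 8.06, 2.35 and 5.01 CPM at day 3 and 18.3, 17.3 and 15.2 at day 7 (log2 fold change 1.72, SE 0.67). Mgp, a matrix inhibitor of calcification, measured 7.93, 21.9 and 16.3 CPM at day 3 and 54, 42.4 and 40.7 at day 7 (2.97-fold higher, log2 fold change 1.57, SE 0.44). Both lay apart. Dcn, the collagen-binding proteoglycan decorin, measured 2.59, 13.8 and 8.08 CPM at day 3 and 14.4, 32.4 and 18.3 at day 7, with the highest day 3 library just below the lowest day 7 library (log2 fold change 1.41, SE 0.56).

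The collagens differed from each other. Col1a2, a chain of type I collagen, measured 27.6, 45.9 and 42.7 CPM at day 3 and 81.2, 82.1 and 59.7 at day 7, apart and higher (log2 fold change 0.94, SE 0.40), whereas its partner chain Col1a1 measured 46.4, 184 and 39 CPM at day 3 and 46.2, 76.8 and 32 at day 7, with overlap and a day 3 replicate 2 value far above the rest. Without that library the fitted log2 fold change of Col1a1 was 0.27, against -0.80 with it. Col3a1 overlapped at 38.8, 53 and 49.9 CPM at day 3 and 84.2, 95.6 and 41 at day 7 (log2 fold change 0.64, SE 0.39), and so did Fn1, fibronectin, at 64.3, 100.3 and 55.9 CPM at day 3 and 99.7, 118 and 65.6 at day 7. Col15a1 of the basement membrane zone measured 14.4, 12.2 and 18.1 CPM at day 3 and 26.6, 35.1 and 26.3 at day 7 (log2 fold change 0.97, SE 0.35), and Col12a1 and Col8a1 had log2 fold changes of 1.25 and 1.40 without overlap. Acta2, the smooth muscle actin of myofibroblasts, did not separate at 8.59, 5.72 and 4.12 CPM at day 3 and 10.2, 3.88 and 7.29 at day 7 (log2 fold change 0.22, SE 0.73). Cdh11, the mesenchymal cadherin that the title also names, measured 5.41, 10.8 and 7.95 CPM at day 3 and 28.9, 21.2 and 7.04 at day 7. Day 7 replicates 1 and 2 were above all of day 3, but replicate 3 was within its range (log2 fold change 1.24, SE 0.61, edgeR adjusted p = 0.506).

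Genes that were lower included Timp3, the matrix-bound inhibitor of metalloproteinases, at 553, 435 and 580.1 CPM at day 3 and 244, 292 and 268 at day 7 (1.95-fold lower, log2 fold change -0.96, SE 0.20, DESeq2 adjusted p = 0.0108). P4ha2, a collagen prolyl hydroxylase, measured 12.1, 9.59 and 8.71 CPM at day 3 and 4.8, 3.92 and 5.03 at day 7 (log2 fold change -1.14, SE 0.37). Signalling genes of the TGF-beta, BMP and Wnt pathways had no common direction, with 18 of 38 tested above 0, 20 below and a median of -0.03, which was 0.16 without day 3 replicate 1 and -0.18 without day 3 replicate 3. Dkk3, a Dickkopf family protein, was higher at 4.84, 4.32 and 7.08 CPM at day 3 and 11.8, 18.5 and 16.6 at day 7 (log2 fold change 1.52, SE 0.50), and Id3, a BMP target, lower at 16.4, 25.2 and 16.7 CPM at day 3 and 13.8, 9.05 and 7.7 at day 7 (log2 fold change -0.93, SE 0.41).

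Endothelial genes were higher at day 7, with 28 of 29 tested and 25 fitted values above 0 (median 0.66). In all 3 libraries 10 lay above (35.7%, against 7.24% of all genes) and 0 below (against 7.33%). None passed edgeR, 7 had an unadjusted p under 0.05, all higher, DESeq2 called 3 (Emcn, Plvap and Ptprb) and limma-voom 0. Emcn, the capillary sialomucin endomucin, measured 7.1, 8.15 and 8.0 CPM at day 3 and 18.2, 25.5 and 16.6 at day 7 (2.59-fold higher, log2 fold change 1.37, SE 0.37). Ptprb, the phosphatase that restrains TIE2, measured 19.1, 17.3 and 12.5 CPM at day 3 and 36.2, 35.2 and 61 at day 7 (log2 fold change 1.44, SE 0.33). Kdr and Flt1, the VEGF receptors, measured 3.08, 3.11 and 3.44 CPM at day 3 and 3.88, 8.23 and 7.18 at day 7 for Kdr, and 4.51, 4.28 and 7.53 CPM at day 3 and 9.51, 14.3 and 16.2 at day 7 for Flt1. Both were apart and both were still below their untreated means of 21.1 ± 7.74 CPM and 24.5 ± 7.28 CPM. Cdh5, the endothelial cadherin, overlapped at 3.22, 15.4 and 6.06 CPM at day 3 and 6.25, 20.4 and 5.86 at day 7. The podocyte list split, with 5 of 22 above (22.7%, against 7.24%), 4 below (18.2%, against 7.33%) and a median of 0.27. Col4a5, a chain of the glomerular basement membrane, was higher at 11.2, 7.39 and 9.76 CPM at day 3 and 17.5, 16.8 and 20.02 at day 7 (log2 fold change 0.94, SE 0.32), and Cd2ap, an adaptor of the slit diaphragm that tubule also expresses, was lower at 239, 174 and 192 CPM at day 3 and 149.5, 149 and 120.1 at day 7 (log2 fold change -0.53, SE 0.20).

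Over the whole series the lists place day 3 and day 7 at different points. Values here are medians over tested members of the log2 CPM difference from the untreated mean (prior count 2), and all comparisons share the 3 untreated libraries. The mitosis median was 2.76 on day 2, then 2.08 (day 3), 1.12 (day 7) and 0.64 (day 14). Injury genes stood at 3.07, 2.62, 1.71 and 1.19 on those days, and loop and distal tubule genes at -1.75, -0.86, -0.36 and -0.05. Endothelial genes were at -1.75, -1.29, -0.50 and -0.14. Proximal tubule genes were at -1.59, -1.31, -1.43 and -0.74, and fatty acid oxidation genes at -0.71, -0.78, -0.86 and -0.46, so neither was nearer to untreated at day 7 than at day 3. Macrophage genes were at 0.03, 1.44, 2.53 and 2.12, and matrix genes at 0.10, 0.89, 1.54 and 1.55.

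**Figure D4:**
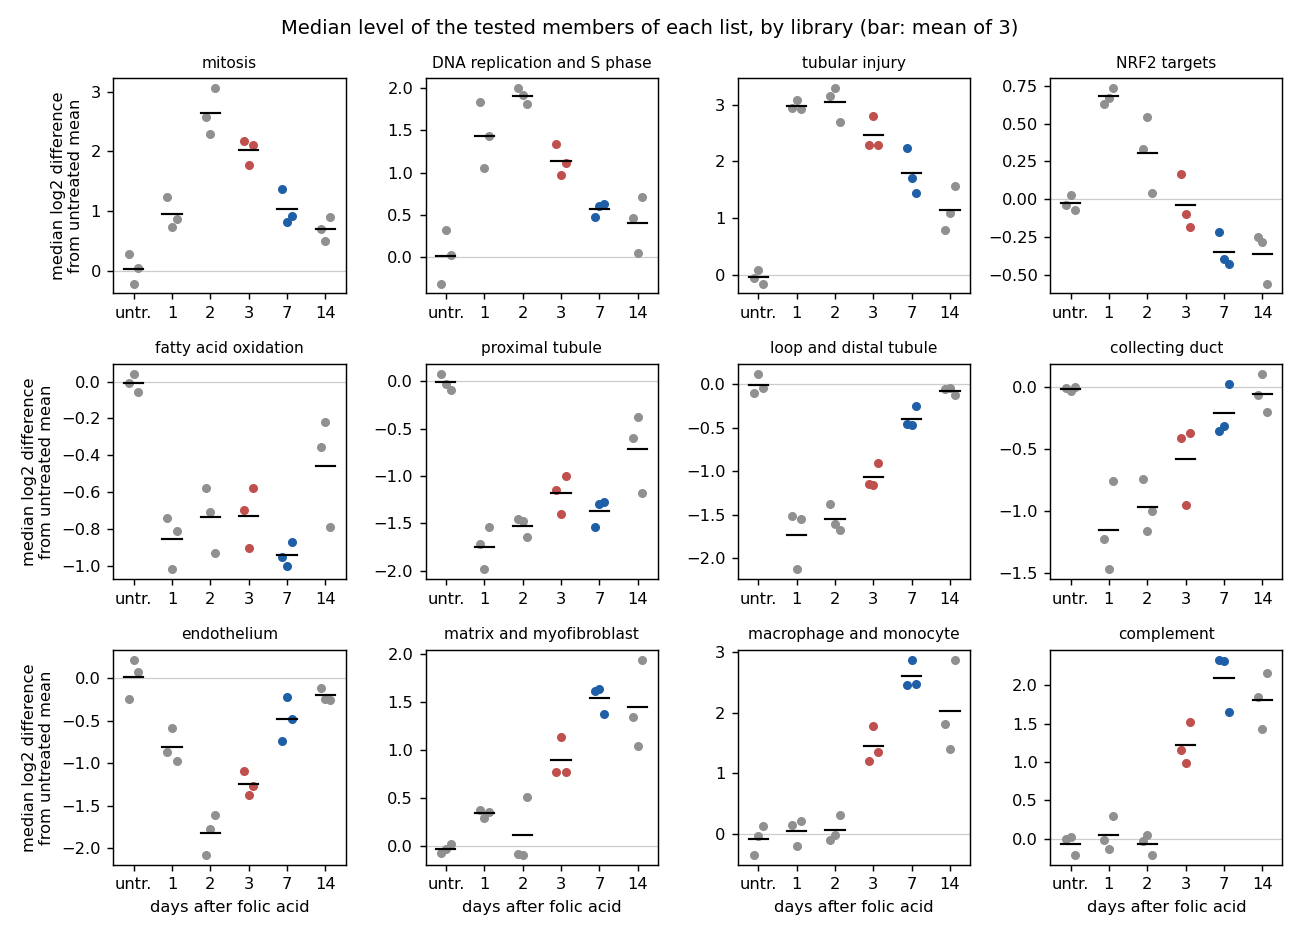
Each panel follows 1 gene list: points are libraries, placed at the median over tested members of the log2 CPM difference from the untreated mean (vertical axis), by days after folic acid (horizontal axis, not to scale in time), with a bar at the mean of 3. Day 3 is red and day 7 blue; mitosis runs from 1.78 to 2.18 at day 3 and from 0.82 to 1.37 at day 7.

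Markers of tissue that can be carried over at dissection were low. The 17 adrenal and adipose genes summed to 28.8 to 47.3 CPM at day 3 and 26.3 to 56.8 CPM at day 7. Cyp11b1, Cyp11b2 and Cyp11a1 of the adrenal cortex and Lep of fat had no read in the 6 libraries. The fat gene Adipoq measured 0.232, 2.42 and 0 CPM at day 3 and 0, 1.57 and 0 at day 7, so it was highest in replicate 2 of both days. The 13 urothelial and smooth muscle genes summed to 24.1 to 31.0 CPM at day 3 and 23.2 to 29.5 CPM at day 7, and 2 of 12 tested, Trp63 and Psca, lay below in all 3 day 7 libraries. Medians of these lists were low, with log2 fold changes of -0.98 for the adrenal and adipose genes and -0.71 for the urothelial and smooth muscle genes, which did not keep their sign in every alternative. Hemoglobin genes had few reads, with Hba-a2 at 0 at day 3 and at 0.164, 0.784 and 0.278 CPM at day 7. Of 21 neutrophil and mast cell genes 5 were tested, with no member apart, and 6, Elane and Ngp among them, had no read. The part of these cells in the results was not tested.

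With day 3 replicate 2 left out, the share of all genes whose libraries were apart was 12.4% higher and 12.5% lower. Against that, mitosis had 35 of 68 below (51.5%), tubular injury 15 (35.7%), NRF2 targets 15 (46.9%), fatty acid oxidation 20 (40.0%), replication 14 (29.8%) and proximal tubule 29 (28.7%). Macrophage genes had 29 of 50 above (58.0%), loop and distal tubule 17 (43.6%), endothelium 11 (39.3%) and matrix 27 (31.0%). The counts of these lists kept their side, while the collecting duct, with 4 above (12.9%), was at the share of all genes. Complement again lay on both sides, with 10 above (32.3%) and 5 below (16.1%).

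Of 30 p53 target genes 1 lay above (3.33%, against 7.24% of all genes) and 4 below (13.3%, against 7.33%), with a median of 0.06 that was -0.20 without day 7 replicate 1 and -0.18 without day 7 replicate 3. Cholesterol synthesis had 1 of 25 above (4.0%) and 0 below, with a median of 0.14 that ranged from -0.05 to 0.22 when 1 library was left out, lowest without day 3 replicate 1. The unfolded protein response had 2 of 30 above (6.67%) and 3 below (10%), with a median of -0.10 that was -0.23 without day 7 replicate 3. Immediate early genes had 4 of 26 above (15.4%) and 2 below (7.69%), with a median of -0.16 that was -0.57 without day 7 replicate 1 and 0.04 without day 3 replicate 2. Cdkn1a, the cell cycle inhibitor p21, was lower in all 3 libraries at 8.86, 14.7 and 7.74 CPM at day 3 and 7.3, 2.28 and 4.44 at day 7 (log2 fold change -1.16, SE 0.67), and the chaperone gene Pdia3 at 208, 219.7 and 199 CPM at day 3 and 155, 126 and 141 at day 7 (log2 fold change -0.57, SE 0.19). Myc, the growth transcription factor, measured 16.4, 17 and 12.6 CPM at day 3 and 12.4, 10.6 and 6.14 at day 7 (log2 fold change -0.66, SE 0.50). Of 15 genes of the mitochondrial genome 14 were tested, and 1 was apart: mt-Cytb, the cytochrome b gene, at 3375, 3021 and 3890.0 CPM at day 3 and 2988, 2838 and 2794 at day 7 (log2 fold change -0.26, SE 0.33).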

How the data were processed

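Total RNA from frozen whole kidney was extracted with TRIzol, and 10 ng per sample was made into libraries with SPIA amplification on an automated system, per the labels' protocols. The deposited counts are reads per gene; per the submitters' processing notes the authors used cutadapt, TopHat2 2.07, HTSeq and DESeq with mouse build NCBIM37. Each raw table holds 37991 gene identifiers and 5 tally rows, which were left out. The tallies were 46.5 to 51.3% of reads in the 6 libraries. The authors' normalized table was not used. Symbols came from GENCODE M21 for 32919 identifiers.

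Counts of all 18 libraries were fitted with edgeR 4.0.16 (TMM scaling, filterByExpr, quasi-likelihood F test, Benjamini-Hochberg adjustment) with the 6 groups as the only term, and the contrast day 7 minus day 3 was taken. P-values are two-sided. Levels are CPM from the same fit, and fold changes are fitted with their standard error (SE). The code of the test was checked on simulated counts, drawn with the spread of the same fit. That check does not show which differences can be detected in these data. The 31 gene lists hold 1192 entries, 10 of which matched no identifier. The comparison and the lists were chosen with earlier results of these data known. Lists were described by counts and medians with no set test.

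Named genes were those that passed, up to 4 members of each list or subgroup in each direction with the largest difference (no overlap, and the higher group averaging 5 CPM or more), and a panel of well-known genes. Other members named for low or overlapping values (such as Hjurp, Trpv5, Cd14, Ptprc, Cdh5 and Igkc) were chosen after their values were seen. No library was a copy of another. Alternatives changed scaling, filter, tool (DESeq2 1.42.0, limma-voom 3.58.1), replicate block, libraries fitted, or left out each library. R 4.3.3, Python 3.11.15, pandas 2.3.3 and matplotlib 3.10.9 were used.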

Additional observations from a re-analysis of the deposited data

How the results depend on the processing

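Few genes pass, and their number depends on the processing. Against 3 calls (3 higher, 0 lower), library totals alone gave 0, only the day 3 and day 7 libraries 0, limma-voom 11 (11 higher), no low-count filter 48 (25 higher, 23 lower) and DESeq2 217 (132 higher, 85 lower). DESeq2 used its own size factors and filter. Other size factors, mitochondrial genes left out, and a mean of at least 1 CPM each gave 3. Leaving out each library in turn gave 0 to 2 calls, 0 to 2 higher. With a replicate block there were 3 calls: Tmem119 missed the threshold (edgeR adjusted p = 0.0856) and Calb1 passed (edgeR adjusted p = 0.0481). The labels do not say what the numbers mean. Same-numbered libraries of day 3 and day 7 correlated at -0.011, 0.013 and 0.028 after group means were removed, with the own number best in 2 of 3. Whether the numbers mark pairs or a batch cannot be told from so few libraries. At 0 calls, edgeR still had 1498 to 1663 genes at an unadjusted p under 0.05 when 1 library was left out. List medians kept their sign in all 15 alternatives for mitosis (-1.17 to -0.93), replication, tubular injury, NRF2 targets, loop and distal tubule (0.48 to 0.94), collecting duct, endothelium, matrix (0.48 to 0.76), macrophage (0.87 to 1.16), complement, proximal tubule (-0.27 to -0.07), fatty acid oxidation, glycolysis, folate and one-carbon (-0.46 to -0.10), interferon response (-0.42 to -0.03), podocyte, antigen presentation (0.05 to 0.28), B and plasma cell and unfolded protein genes (-0.23 to -0.004). They changed sign for TGF-beta, BMP and Wnt signalling, T and natural killer cell, cytokine, oxidative phosphorylation, p53 targets, cholesterol synthesis and immediate early genes. The median of all genes itself ranged from -0.06 to 0.08, so a kept sign says little for medians that came as near 0. With library totals alone the median of all genes moved from -0.02 to 0.08. With 3 libraries a day, single genes that differ by less than the spread between libraries cannot be separated here.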

Other observations

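Genes outside every list were read by a rule chosen after their values had been seen: the 20 with the lowest edgeR p among those without overlap and averaging 10 CPM or more in the higher group. None of those described here but Sema3d passed edgeR's adjusted threshold. Higher at day 7 were Frem1, a matrix protein gene of the epithelial basement membrane zone, at 4.48, 6.59 and 4.88 CPM at day 3 and 22.5, 22.7 and 25.9 at day 7 (log2 fold change 2.16, SE 0.49), Spon1, the secreted matrix protein spondin 1, at 16.3, 22.6 and 16.6 CPM at day 3 and 86.5, 90.3 and 41.6 at day 7 (log2 fold change 1.98, SE 0.45), and F2r, the thrombin receptor, at 19.3, 14.8 and 15.4 CPM at day 3 and 37.2, 38.5 and 53.7 at day 7 (log2 fold change 1.38, SE 0.31). Slc16a7, a monocarboxylate carrier, measured 18.2, 9.66 and 21.3 CPM at day 3 and 44.3, 46.2 and 73.6 at day 7 (log2 fold change 1.74, SE 0.41), and Cacna2d1, a calcium channel subunit, 2.06, 3.71 and 1.55 CPM at day 3 and 10.5, 10.4 and 12.4 at day 7 (log2 fold change 2.19, SE 0.47). All 5 had their 3 day 7 libraries above day 3.

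Lower at day 7 were Cftr, the chloride channel of epithelia, at 17.8, 37.1 and 31.9 CPM at day 3 and 7.24, 12.8 and 12 at day 7 (log2 fold change -1.44, SE 0.33), and Tgm1, a transglutaminase of keratinizing epithelium, at 20.2, 19.2 and 12.2 CPM at day 3 and 7.7, 5.95 and 3.75 at day 7 (log2 fold change -1.57, SE 0.36). Spink1, a trypsin inhibitor, measured 134, 167 and 212 CPM at day 3 and 89.6, 67.1 and 91.5 at day 7 (log2 fold change -1.05, SE 0.24). In other genes of the 20, 1 library stood far above the rest of its group. Tmem165 measured 21.7, 63.9 and 23.3 CPM at day 3 and 11.6, 8.2 and 7.46 at day 7, with day 3 replicate 2 highest. Lims2 measured 15.1, 131 and 11.5 CPM at day 3 and 4.97, 2.89 and 10.3 at day 7, Elp3 6.77, 48.9 and 4.7 CPM at day 3 and 2.37, 3.24 and 2.5 at day 7, Mbd3 5.37, 41.5 and 8.03 CPM at day 3 and 3.19, 2.92 and 3.75 at day 7 and Pde4d 22.4, 162 and 42.6 CPM at day 3 and 17.9, 16.2 and 17.3 at day 7, each with day 3 replicate 2 far above the rest. Dnajb5 measured 1.89, 0.644 and 1.63 CPM at day 3 and 7.14, 51.2 and 4.02 at day 7, with day 7 replicate 2 highest, and Itgae 1.23, 0.152 and 0.236 CPM at day 3 and 57.8, 5.1 and 2.36 at day 7, with day 7 replicate 1 highest.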
